A study of Mus musculus with 6 samples.

Results

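C1q-expressing macrophages of healing mouse skin wounds were examined in 3 droplet libraries of single cells. They were selected on unique molecular identifiers (UMIs, the count of captured RNA molecules). A member held 5 or more UMIs of C1qa, C1qb and C1qc together. It held UMIs of fewer than 3 of the 6 genes Lyve1, Cd209f, Cd209g, Cd209b, Cd209d and Fcna, which mark resident macrophages around vessels. It also held under 5 UMIs of Arg1 plus Mmp12, and its Col1a1, Col1a2 and Col3a1 UMIs together made up under 0.5% of its UMIs. Of 11032 cells that passed the quality limits, 1329 (347, 565 and 417 per library) met this rule.

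The wounds were 6 mm splinted full-thickness excisions, 2 on the back of each C57BL/6J wild-type mouse, made at 6 weeks of age and harvested on day 10. Each was covered with a pullulan-collagen hydrogel that carried control dendritic cells (DCs), carried Ndrg2-KO DCs, or was blank. The DCs were grown from bone marrow, and Ndrg2-KO DCs had been nucleofected with Cas9 and 3 guides against Ndrg2. The labels call the control DCs untreated, while the study's methods describe nucleofection with 3 non-targeting guides. The methods describe females and males assigned at random. Of 6 sex-linked genes 4 had no UMI in members of any wound library, and the sex of the cells was not tested. The methods give 5 mice per group, but 1 library stands for each group and its cells cannot be traced to single mice. No difference between groups therefore has a replicate check, and all 95% intervals below cover counting error only. Since wounds of all 3 groups received a hydrogel, wounds without one were not compared.

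C1q is the recognition part of the classical complement pathway and is assembled from A, B and C chains, the products of C1qa, C1qb and C1qc. It binds antibody complexes and the surface of dying cells, and in most tissues macrophages are its main source. Macrophages of a skin wound are known to arise from monocytes that enter from the blood and from cells already resident in the skin. They clear dead neutrophils and debris, secrete factors that act on fibroblasts and vessels, and differ in how much MHC class II, which presents antigen to T cells, they carry.

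The genes that chose the cells lie side by side on chromosome 4. In the GENCODE M21 annotation of GRCm38, C1qb (136880129 to 136886187), C1qc (136889804 to 136893065) and C1qa (136895917 to 136898803) are all protein-coding genes on the minus strand, within 18.7 kb. Of the other markers, Fcrls lies on chromosome 3 (87250758 to 87263738), Ccl12 on chromosome 11 (82101845 to 82103400), Adgre1 on chromosome 17 (57358691 to 57483527) and Ms4a7 on chromosome 19 (11321039 to 11336146). Sequences upstream of C1qb and C1qc are shown because the rule counts these genes together in the same cells. Start sites are those of RefSeq, and bases that GENCODE places inside a transcript were left out. They are RefSeq sequences of GRCm38.p6 read 5′ to 3′ along the minus strand, from chr4:136886201-136886450 (250 bases) and chr4:136893066-136893164 (99 bases). Capitals mark matches to TGCTGA, the core of a MAF half-site, and to ACTTCC, which is the reverse complement of the ETS core GGAAGT.
C1qb: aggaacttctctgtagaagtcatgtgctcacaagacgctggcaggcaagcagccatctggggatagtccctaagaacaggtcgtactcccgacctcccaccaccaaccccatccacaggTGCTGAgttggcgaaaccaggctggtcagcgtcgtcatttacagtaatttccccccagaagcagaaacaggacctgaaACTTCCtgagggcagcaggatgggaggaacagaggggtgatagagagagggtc
C1qc: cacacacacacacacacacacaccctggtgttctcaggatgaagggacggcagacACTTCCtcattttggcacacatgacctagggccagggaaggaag
Matches were sought on both strands, and the motif letters were chosen with these sequences in view. In C1qb, TGCTGA began 131 bases before the start site on the same strand as the gene, and GGAAGT lay 53 bases before it on the opposite strand. In C1qc, GGAAGT lay 195 bases before the start site on the opposite strand. TGCTGA was found in 16.1% and GGAAGT in 19.7% of 32851 RefSeq promoter windows of equal length. Among the 15 genes that led the members over all other cells (below), 12 had a promoter entry, of which 4 held TGCTGA and 7 held GGAAGT. A gene was counted if any of its windows held the motif, while the percentages count single windows. The counts are therefore not on the same unit as the percentages, and no enrichment is read from them. A match is a run of letters and does not show that a factor binds there.

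C1q-expressing macrophages made up 17.8% of kept cells in the control DC library (95% interval 16.1 to 19.6), 9.95% in the Ndrg2-KO DC library (9.18 to 10.8) and 12.3% in the blank hydrogel library (11.2 to 13.4). The 3 intervals did not overlap. Among 3 macrophage classes set by UMI rules (these cells, Lyve1/Cd209 macrophages and Arg1/Mmp12 macrophages, defined with their comparisons below), the members were 53% of 655 cells (49.1 to 56.9), 37.1% of 1524 (34.6 to 39.6) and 42.6% of 979 (39.5 to 45.8) in the same order. The order of the libraries was the same with both denominators. The libraries also differed in their other cells. Cells with at least 0.5% of their UMIs from S100a8 and S100a9, calcium-binding proteins abundant in neutrophils, were 23.7%, 53% and 46.6% of all kept cells. Median depth over all kept cells was 10795, 4415 and 5603 UMIs. What these differences contribute to the shares was not tested.

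**Figure D1:**
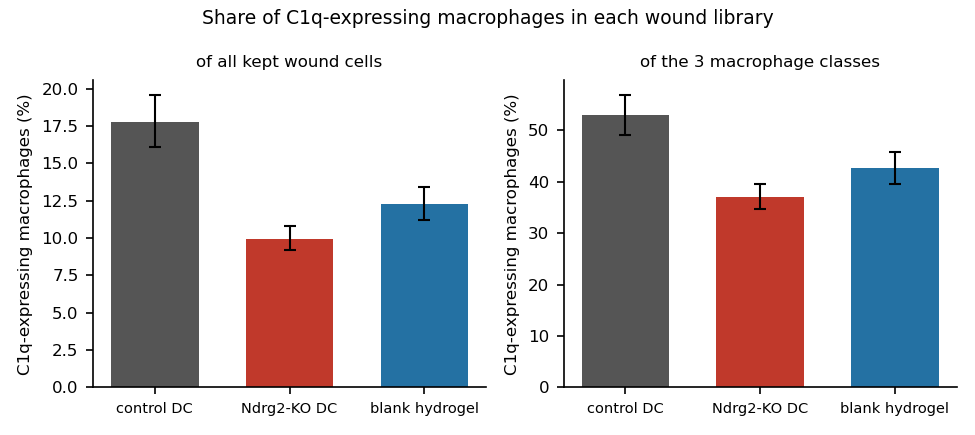
Share of C1q-expressing macrophages in each wound library, in percent of all kept cells (left) and of the cells of 3 macrophage classes (right); bars are shares and whiskers exact 95% counting intervals, with 1 library per bar. The control DC library stands highest in both panels (17.8% and 53%) and the Ndrg2-KO DC library lowest (9.95% and 37.1%).

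Members had a higher median depth than all kept cells of each library, and their medians differed less between libraries. They made up 17.8%, 9.95% and 12.3% of kept cells and held 14.5%, 12.7% and 13.4% of the UMIs (control DC, Ndrg2-KO DC, blank hydrogel). Their median was 11785, 10477 and 10834 UMIs and 2861, 2690 and 2787 genes per cell in control DC, Ndrg2-KO DC and blank hydrogel wounds, with a median mitochondrial share of 2.27%, 2.52% and 2.4%. Together they held 4299939, 6245531 and 4662236 UMIs, the totals to which every level (CPM, the usual scaling of summed UMIs to a common total) refers. The median member held 64, 66 and 52 C1q UMIs, and at least 90% of members held 10, 14 and 9 or more. Near the limit, 3, 16 and 7 members held exactly 5 C1q UMIs, while 7, 17 and 12 cells that met every other condition held 4. Of 604, 1071 and 827 cells with 5 or more C1q UMIs, 101, 155 and 70 were left out by the Lyve1 and Cd209 limit, 150, 359 and 337 by the Arg1 and Mmp12 limit and 7, 15 and 9 by the collagen limit. UMIs of all 3 C1q genes were seen in 92.5%, 94.3% and 91.1% of members. No member barcode was shared between libraries.

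The 6 marker genes given for these cells were present in all 3 libraries. C1qa stood at 2478, 2842 and 2448 CPM and C1qb at 2170, 3051 and 2024 CPM in control DC, Ndrg2-KO DC and blank hydrogel wounds, values that the selection itself sets. Adgre1, the F4/80 antigen of mature macrophages, was at 394, 374 and 358 CPM, and Ms4a7, a membrane protein typical of macrophages, at 586, 598 and 499 CPM. Fcrls, an Fc receptor-like gene known from microglia, stood at 124, 159 and 107 CPM, and Ccl12, a chemokine that attracts monocytes, at 197, 255 and 230 CPM. With each cell drawn down to 1000 UMIs, Adgre1 was seen in 30.6%, 28.3% and 24.3% and Ms4a7 in 36.2%, 39.5% and 32.8% of members. In fibroblasts of the same libraries, cells with at least 2% collagen UMIs and no Ptprc, the thinned share was 0 for Adgre1 and at most 0.376% for Ms4a7, at a median depth of 26592 to 32928 UMIs before thinning. Unthinned, Adgre1 was seen in 85%, 84.8% and 84.9% and Ms4a7 in 81.8%, 83.5% and 82.3% of members. Ptprc, the leukocyte antigen CD45, was seen in 86.5%, 89.4% and 88.2% of members (27.4%, 31.5% and 27.4% at 1000 UMIs, 0 in fibroblasts). The label macrophage thus met its markers, none of which apart from C1qa and C1qb was used to choose the cells.

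Markers of most other cell types were low in the summed members. The summed level of 8 keratinocyte markers was 6.28, 9.61 and 15.7 CPM, and that of 8 endothelial markers 16.7, 24.3 and 36.5 CPM. The 10 T and NK cell markers summed to 62.6, 86 and 75.1 CPM and the 10 dendritic cell markers to 23.3, 29.8 and 74.6 CPM. Fibroblast markers reached 484, 488 and 805 CPM, against 127720, 95550 and 96699 CPM in fibroblasts. Neutrophil and red cell RNA was higher. The 8 neutrophil markers summed to 1121, 4721 and 1287 CPM and the 6 red cell markers to 3218, 4594 and 1645 CPM (201, 1522 and 753 CPM in fibroblasts). A small number of members carried most of the neutrophil RNA: 8, 46 and 14 members (2.31%, 8.14% and 3.36%) had 0.5% or more of their UMIs from S100a8 and S100a9, held 95.5%, 95.8% and 86% of these UMIs, and 6, 28 and 12 of them stood in the highest 6% of doublet scores. Every comparison between libraries was therefore repeated without them, an alternative chosen after the data were seen. Haemoglobin genes reached 1% of UMIs in 5, 10 and 3 members, which held 98%, 96.5% and 94.7% of the haemoglobin UMIs. Gm42418, a gene model that overlaps ribosomal RNA repeats, took 174377, 99245 and 164527 CPM of members, which bears on the totals. Log2 ratios of all tested genes still centred between -0.04 and 0.04 in the 3 comparisons of libraries.

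Against all other kept wound cells, 503 of 10138 genes (4.96%) were 2-fold or more higher in members in all 3 libraries and 1502 (14.8%) lower. A gene counts as 2-fold higher or lower here when it has at least 100 UMIs in both sums together, differs 2-fold or more, and has a counting interval that excludes no change. These ratios describe cells chosen by measured values and were not tested. Besides the C1q genes, the 15 genes with the highest lowest-of-3 ratio were Fcrls, Il10, Ccl12, Ly86, Mrc1, Cd83, Cbr2, Apoe, Adgre1, Hpgds, Ms4a7, Ms4a6b, Slc9a9, Stab1 and Clec4a1, with log2 ratios from 2.08 (Clec4a1, blank hydrogel) to 3.72 (Il10, control DC). Il10, an anti-inflammatory cytokine, stood at 368, 468 and 359 CPM in members and at 27.9, 62.7 and 31.6 CPM in the other cells. Mrc1, the mannose receptor CD206, stood at 1612, 1412 and 1642 CPM in members and 276, 272 and 304 CPM elsewhere. Apoe, the apolipoprotein by which macrophages export cholesterol, was among their most abundant transcripts at 18964, 17158 and 12687 CPM, against 3431, 3085 and 2701 CPM. It was higher still in Lyve1/Cd209 macrophages, at 26202, 19343 and 25763 CPM, and the 6 given markers together also summed to more there (8379, 9993 and 7173 CPM, against 5950, 7278 and 5666 CPM in members). Stab1 encodes a scavenger receptor, Ly86 a partner of the RP105 receptor, Hpgds a prostaglandin D synthase and Cd83 a surface molecule of activated antigen-presenting cells.

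Set against Lyve1/Cd209 macrophages, cells with 5 or more C1q UMIs and 3 or more of the 6 resident genes, under the same collagen limit (100, 153 and 69 cells), 152 of 5320 genes (2.86%) were higher in members in all 3 libraries and 81 (1.52%) lower. MHC class II separated the 2 classes. All 6 MHC class II genes with enough UMIs were 2-fold or more higher in members in all 3 libraries, and H2-Eb1, a chain of the I-E molecule, stood at 2016, 2316 and 1678 CPM against 218, 168 and 268 CPM. Ccr2, the receptor by which monocytes follow CCL2 into tissue, stood at 119, 312 and 175 CPM in members and at 2.31, 27.3 and 2.57 CPM in Lyve1/Cd209 macrophages. Of the 9 monocyte genes tested 7 were higher in members, Ms4a4c among them at 75.3, 120 and 127 CPM against 8.66, 13.2 and 3.43 CPM. Thbs1, the matrix protein thrombospondin 1, stood at 1831, 1869 and 1540 CPM against 97.6, 217 and 25.7 CPM.

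Genes lower in members than in Lyve1/Cd209 macrophages were led by C6, a late complement component, at 27.4, 13.4 and 15.7 CPM against 262, 178 and 178 CPM. Cd209a, a C-type lectin, stood at 3.95, 6.72 and 6.65 CPM against 205, 53.1 and 88.3 CPM, and Cd55, which protects cells from complement, at 24.4, 11.5 and 14.4 CPM against 158, 140 and 107 CPM. C4b, the complement component that C1q activation leads to, was at 254, 187 and 214 CPM against 1099, 913 and 956 CPM. Clec10a, a galactose-binding lectin, was also lower, with log2 ratios of -2.03, -2.06 and -2.19. Of the 17 resident or perivascular macrophage genes tested, 10 were lower in members in all 3 libraries, a list that holds genes the rule used. None of the 22 lysosome genes and none of the 12 interferon-stimulated genes tested differed 2-fold in all 3 libraries. C1qb itself stood at 2856, 3707 and 2451 CPM in Lyve1/Cd209 macrophages, above the 2170, 3051 and 2024 CPM of members.

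Against Arg1/Mmp12 macrophages, cells with 5 or more UMIs of Arg1 plus Mmp12 and no place in the other 2 classes, under the same collagen limit (208, 806 and 493 cells), 132 of 6046 genes (2.18%) were higher in members in all 3 libraries and 131 (2.17%) lower. Glycolysis and hypoxia genes were the group most often lower, with 15 of 20 tested 2-fold or more lower in members in all 3 libraries. Ldha, lactate dehydrogenase A, stood at 231, 326 and 330 CPM in members and 643, 930 and 741 CPM in Arg1/Mmp12 macrophages. Bnip3, a hypoxia-induced mitophagy gene, stood at 34.2, 42.9 and 60.9 CPM against 189, 319 and 282 CPM. Of 16 matrix and protease genes 8 were lower in members. Fn1, fibronectin, was at 190, 269 and 509 CPM against 1667, 2334 and 2334 CPM, and Mmp8, a collagenase, at 7.44, 5.28 and 3 CPM against 94.7, 198 and 102 CPM. Spp1, the secreted phosphoprotein osteopontin, stood at 450, 1345 and 1461 CPM in members and 3864, 6432 and 5403 CPM in Arg1/Mmp12 macrophages.

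Genes higher in members than in Arg1/Mmp12 macrophages included receptors and ligands of uptake, although of 19 clearance genes tested 3 were higher and 2 lower. Gas6, the ligand that bridges dying cells to the TAM receptors, stood at 371, 388 and 369 CPM against 33.5, 51.1 and 39.4 CPM. Fcgrt, the neonatal Fc receptor, was at 385, 420 and 422 CPM against 56.1, 66.7 and 73.7 CPM. Cd163, the scavenger receptor for haemoglobin-haptoglobin complexes, was at 334, 194 and 330 CPM against 67.9, 28.3 and 41.8 CPM. Resident or perivascular macrophage genes were higher in members in all 3 libraries for 10 of 13 tested. None of the 12 interferon-stimulated genes was lower and 1 was higher.

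A last class, Ly6c2/Ccr2 cells, held UMIs of both Ly6c2 and Ccr2, under 5 C1q UMIs and under 5 UMIs of Arg1 plus Mmp12, under the same collagen limit (45, 114 and 66 cells). Both genes are known from monocytes, but the class was mixed with lymphocytes, since its 10 leading genes over members included Trbc2 and Cd3d of the T cell receptor complex and Klrd1 of NK cells. Trbc2 stood at 411, 242 and 93.7 CPM in it and at 0.233, 5.6 and 2.36 CPM in members, and its T and NK cell markers summed to 1587, 1170 and 707 CPM. It is therefore named by its rule, and levels in it are not read as those of monocytes. Here 377 of 4779 genes (7.89%) were higher in members in all 3 libraries and 80 (1.67%) lower. Ccl8, a chemokine for monocytes and eosinophils, stood at 4831, 4793 and 3613 CPM in members and 17.3, 45.7 and 15.2 CPM in Ly6c2/Ccr2 cells. Igf1, insulin-like growth factor 1, stood at 206, 157 and 175 CPM in members and was at 0, 3.81 and 0 CPM in Ly6c2/Ccr2 cells. Npl, an enzyme of sialic acid breakdown, was at 77, 139 and 83.9 CPM against 1.92, 4.76 and 0 CPM. Of 22 lysosome genes tested 11 were higher in members in all 3 libraries, of 18 clearance genes 9, and of 14 lipid-associated macrophage genes 9.

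**Figure D2:**
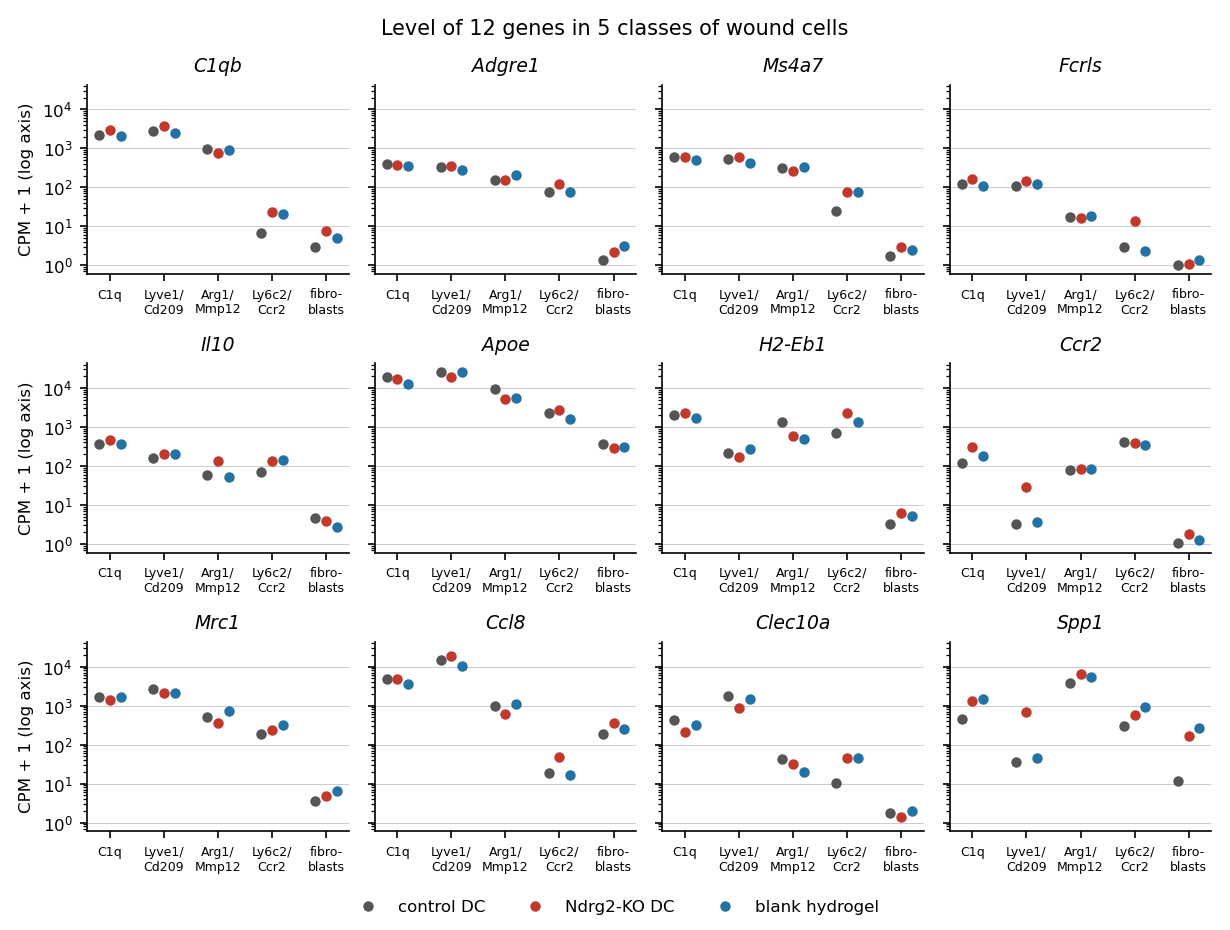
Level of 12 genes (CPM + 1, log axis) in C1q-expressing macrophages and in 4 comparison classes of wound cells; each point is 1 library, coloured by hydrogel treatment. H2-Eb1 and Ccr2 are higher in C1q-expressing than in Lyve1/Cd209 macrophages, Apoe and Clec10a are higher in them than in Arg1/Mmp12 macrophages, and Spp1 is lower in them than in Arg1/Mmp12 macrophages in all 3 libraries.

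Members varied widely in MHC class II. After each member was drawn down to 1000 UMIs, 44% (38.7 to 49.5), 40.1% (36 to 44.3) and 50.5% (45.5 to 55.4) had no UMI of H2-Aa, H2-Ab1 or H2-Eb1 in control DC, Ndrg2-KO DC and blank hydrogel wounds. A further 39.4% (34.2 to 44.7), 42.8% (38.6 to 47) and 33% (28.5 to 37.8) had 5 or more, and 16.6%, 17.2% and 16.5% had 1 to 4. Above 0 the counts formed a long tail, with 28, 10, 8 and 11 control DC members at 1, 2, 3 and 4 UMIs, 36 over the values 5 to 9 and 64 over 10 to 19. The 2 ends of this range were then set side by side. The intervals of the blank hydrogel and Ndrg2-KO DC libraries did not overlap for members at 0, and those of the control DC library overlapped both. The limit of 5 was set after the counts were seen, and 11, 14 and 7 members held 4 such UMIs while 9, 11 and 15 held 5. Depth did not separate the groups, whose medians were 12407, 10746 and 11240 UMIs for members at 0 and 11861, 10393 and 11504 UMIs for members with 5 or more. In thinned fibroblasts 98.6%, 98.8% and 98.9% were at 0 and none held 5, while in Lyve1/Cd209 macrophages 64%, 82.2% and 66.2% were at 0. The division was made on 3 genes of these cells, so the genes beside it are a description.

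Of 3963 genes, 45 (1.14%) were 2-fold or more higher and 72 (1.82%) lower in members with 5 or more MHC class II UMIs than in members at 0, in all 3 libraries. The 45 include all 6 MHC class II genes tested, on 3 of which the members were divided, and 39 others. C1qb differed little between them, with log2 ratios of -0.12, -0.15 and -0.01. Mgl2, a galactose-type lectin of antigen-presenting cells, was higher with log2 ratios of 3.06, 2.84 and 2.99, and Cytip, a regulator of leukocyte adhesion, with 2.88, 2.63 and 2.74. Ccr2 stood at 242, 432 and 369 CPM in MHC class II-high members and 32.1, 182 and 59.8 CPM in those at 0. Il1b, interleukin-1 beta, stood at 960, 2088 and 1219 CPM against 228, 912 and 387 CPM. Axl, a TAM receptor, was higher with log2 ratios of 2.52, 2.47 and 2.52. Retnla, a secreted protein of alternatively activated macrophages, had the highest ratios (6.91, 7.42 and 3.92), but 1 cell held 32.1%, 64.6% and 45.6% of its UMIs in the 3 libraries.

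Resident macrophage genes lay on the MHC class II-low side. Of 13 resident or perivascular macrophage genes tested 9 were lower in MHC class II-high members in all 3 libraries, and none was higher. Mertk, the TAM receptor that takes up dying cells, stood at 63.2, 35.2 and 48.4 CPM in MHC class II-high members and 141, 90 and 128 CPM in those at 0. Gas6, a ligand of Mertk and Axl, was lower with log2 ratios of -1.83, -1.65 and -1.53, so that the ligand and Mertk were higher in the same members while Axl was higher in the others. Cd163 had log2 ratios of -2.25, -1.35 and -2.19, Npl of -2.24, -2.21 and -2.23, and Ccl8 of -1.83, -2.99 and -2.16. Apoe differed less, with 12418, 11657 and 7988 CPM against 23513, 22422 and 15819 CPM. Of 18 clearance genes 4 were lower and 1 higher in MHC class II-high members. Growth factor genes were lower in MHC class II-high members for 4 of 11 tested. Pdgfc, a ligand of PDGF receptors, stood at 19.2, 10.1 and 18.9 CPM against 73.5, 53.1 and 70.9 CPM. Interferon-stimulated, lysosome and complement genes differed 2-fold in all 3 libraries for 0 of 12, 1 of 21 and 0 of 12 genes.

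**Figure D3:**
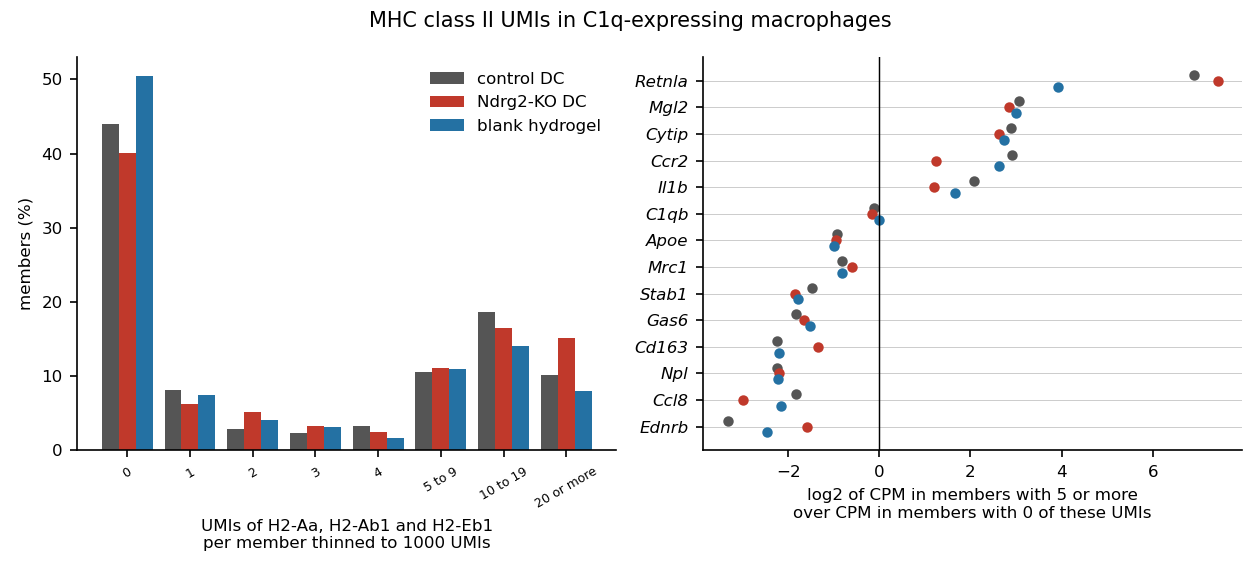
Left, percent of members by their number of H2-Aa, H2-Ab1 and H2-Eb1 UMIs at 1000 UMIs per cell; right, log2 ratio of CPM in members with 5 or more over members with 0 of these UMIs for 14 genes, with 1 point per library. The bars above 4 UMIs each cover several values; the highest bar is at 0 and a tail runs to 20 or more, C1qb lies near 0 on the right, and Mgl2 and Cytip lie on the opposite side from Stab1, Gas6, Cd163, Npl, Ccl8 and Ednrb in all 3 libraries.

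The genes that varied most between members of 1 library were partly those of other cells. By the Fano factor (variance over mean of UMIs at 1000 UMIs per cell), 85 of 2256 genes reached 2 or more, against a median of 1.06. The 15 highest, by their median over libraries, included 4 haemoglobin genes, led by Hbb-bs (129) and Hba-a1 (42.9), the transcripts Gm42418 (32.8) and Malat1 (10.6), and S100a9 (24.6) and S100a8 (20.5). The other 7 were Retnla (13.1), Cxcl2, a chemokine that draws neutrophils (12.9), Saa3, an acute-phase protein (12.7), Ccl8 (11.1), Spp1 (10.8), Apoe (9.71) and Cd74, the MHC class II invariant chain (9.22). Cxcl2 was seen in 64.7%, 85.5% and 77.4% of thinned members, against 48.1%, 62.9% and 56.8% of fibroblasts, and in 86.7%, 96.5% and 96.6% of members unthinned. Without the members that held haemoglobin RNA 78 genes, and without those that held neutrophil RNA 71 genes, reached a Fano factor of 2.

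Comparing members of Ndrg2-KO DC with control DC wounds, 133 of 6977 genes (1.91%) were 2-fold or more higher and 37 (0.530%) lower. Without the members that held neutrophil RNA the counts were 97 and 30, and 84 and 28 genes were called in both. Of the 133 and 37 genes, 81 and 23 were also called without the top cell of each gene and without neutrophil RNA members. Of the 170 called genes 74 differed 2-fold or more the same way in all other kept cells of these wounds, and in fibroblasts 17 of the higher and 5 of the lower genes were also called in the same direction. In blank hydrogel against control DC wounds 72 of 6584 genes (1.09%) were higher and 26 (0.395%) lower, and 25 of the 98 differed 2-fold or more the same way in all other kept cells. With members drawn down to 1000 UMIs these counts were 7 and 9 of 1108 genes, so the excess of higher genes was not seen. In Ndrg2-KO DC against blank hydrogel wounds the counts were 73 of 7050 (1.04%) and 42 (0.596%). Without neutrophil RNA members they were 44 and 42, so the excess of higher genes was not seen, and 30 and 28 of the called genes were also called without the top cell of each gene and without neutrophil RNA members. Of the 115 genes 18 differed 2-fold or more the same way in all other kept cells. The 3 comparisons share libraries. The percentages of all genes given here are the background for the counts of gene lists below. Genes set by 1 cell include Mmp3 and BC100530, with 94% and 84.3% of their Ndrg2-KO DC UMIs in 1 member, Dqx1, with 97.8% of its control DC UMIs in 1 member, and Mucl1, whose 159 blank hydrogel UMIs all came from 1.

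**Figure D4:**
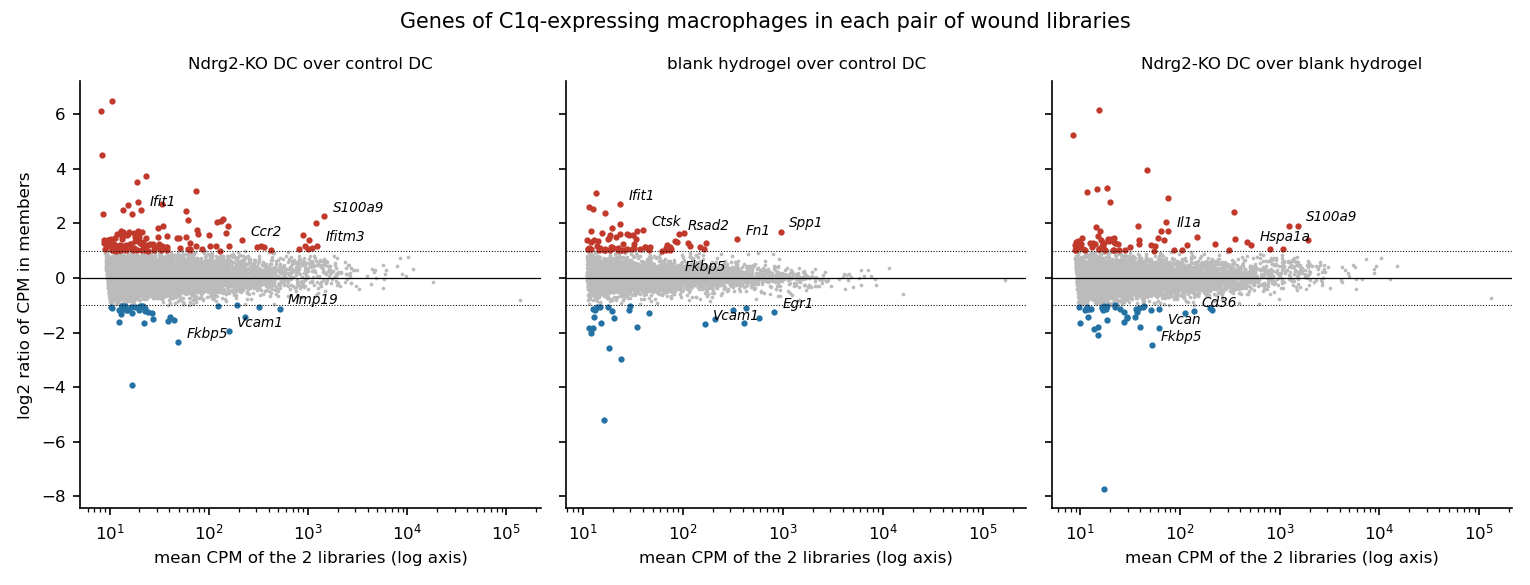
Log2 ratio of CPM in members against the mean CPM (log axis) for every gene with 100 or more UMIs in the 2 sums, in each pair of wound libraries; red and blue points are genes called 2-fold higher and lower, grey points the rest, dotted lines 2-fold. Mucl1, without a UMI in control DC members, is not drawn in the middle panel. Fkbp5 lies low where Ndrg2-KO DC members are compared and near 0 between blank hydrogel and control DC members, where Vcam1 lies low.

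Fkbp5, a co-chaperone of the glucocorticoid receptor that glucocorticoids induce, was more than 2-fold lower in Ndrg2-KO DC members than in members of both other libraries. It had 352, 101 and 415 UMIs in members of control DC, Ndrg2-KO DC and blank hydrogel wounds, or 81.9, 16.2 and 89 CPM. The log2 ratio was -2.34 (95% interval -2.67 to -2.02) against control DC and -2.46 (-2.79 to -2.14) against blank hydrogel wounds, and 0.12 (-0.09 to 0.33) between those 2. It was seen in 55.3%, 15.2% and 48% of members, and at 1000 UMIs in 9.62%, 1.25% and 9.22%, against 2.46%, 2.33% and 3.76% of fibroblasts, which also express it. No single member held over 3.96% of its UMIs in any library. Other classes moved the same way: the Ndrg2-KO DC over control DC log2 ratio was -2.32 in Lyve1/Cd209 macrophages, -1.95 in Arg1/Mmp12 macrophages, -1.86 in Ly6c2/Ccr2 cells and -0.88 in fibroblasts. Against control DC, Fkbp5 was thus more than 2-fold lower in the other macrophage classes and in Ly6c2/Ccr2 cells. In fibroblasts it was under 2-fold lower, and at 1000 UMIs it was seen in 2.33% against 2.46% of them. A difference in size between classes was not tested.

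Vcam1, the adhesion molecule that binds the integrin VLA-4, was higher in control DC members than in members of the other 2 libraries. It stood at 253, 65.8 and 78.9 CPM (1087, 411 and 368 UMIs). Its log2 ratio to control DC was -1.94 (-2.11 to -1.78) for Ndrg2-KO DC and -1.68 (-1.85 to -1.51) for blank hydrogel. Lyve1/Cd209 macrophages showed -2.55 and -1.97, whereas fibroblasts showed 0.13 and -0.08 and Arg1/Mmp12 macrophages, at the low level of 13.7, 21.8 and 29.3 CPM, showed 0.67 and 1.10. It was seen in 34.3%, 12.4% and 14.4% of members, and at 1000 UMIs in 14.3%, 3.22% and 5.34%, against 7.92%, 6.99% and 3.38% of fibroblasts. H19, an imprinted non-coding RNA, was lowest in blank hydrogel members, at 31.6, 13.6 and 5.36 CPM, and Cd4, which mouse monocyte-derived cells can carry, stood at 19.8, 15.4 and 5.58 CPM.

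Ccr2 was higher in Ndrg2-KO DC members, with 510, 1946 and 816 UMIs or 119, 312 and 175 CPM. The log2 ratio to control DC was 1.39 (1.25 to 1.54), and 1.43 without neutrophil RNA members, while to blank hydrogel it was 0.83 (0.71 to 0.95), under 2-fold. At 1000 UMIs it was seen in 9.91%, 22.9% and 16.5% of members and in no fibroblast, and unthinned in 30%, 56.8% and 40.5% of members. Between Ndrg2-KO DC and control DC it stood at 182 against 32.1 CPM in members without MHC class II UMIs, and at 432 against 242 CPM, under 2-fold, in members with 5 or more. In Lyve1/Cd209 macrophages Ccr2 stood at 2.31, 27.3 and 2.57 CPM, also highest in the Ndrg2-KO DC library. In Ly6c2/Ccr2 cells, chosen by Ccr2, the level was 415, 387 and 354 CPM. Of 11 monocyte genes it was the 1 gene 2-fold higher in Ndrg2-KO DC than in control DC members. Chil3, Vcan and Fn1 of the same list were higher in blank hydrogel against control DC members, with log2 ratios of 1.12, 1.22 and 1.42. That of Chil3 was -0.16 without the limits on Lyve1, Cd209, Arg1, Mmp12 and collagen genes.

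Of 17 genes in the interferon-stimulated list, 7 were 2-fold or more higher in Ndrg2-KO DC than in control DC members (6 without neutrophil RNA members) and 6 in blank hydrogel members, none was lower, and between Ndrg2-KO DC and blank hydrogel 0 differed 2-fold. The median log2 ratio over the 17 genes was 0.31, 0.71 and -0.21 in these comparisons, beside -0.01, 0.04 and -0.04 over all genes. Outside that list, the interferon-inducible Iigp1 was lower in Ndrg2-KO DC members than in control DC (log2 ratio -1.30) and blank hydrogel members (-1.46), and Ifi205 was higher in blank hydrogel than in control DC members (1.12) and lower in Ndrg2-KO DC than in blank hydrogel members (-1.07). Ifit1, which blocks translation of viral RNA, stood at 6.28, 35.4 and 41 CPM (27, 221 and 191 UMIs). Its log2 ratio to control DC was 2.49 (1.91 to 3.13) for Ndrg2-KO DC and 2.71 (2.12 to 3.34) for blank hydrogel, where 1 member held 31.9% of its UMIs. Rsad2, the antiviral enzyme viperin, stood at 45.1, 102 and 139 CPM, and Isg15, a ubiquitin-like protein, at 86.5, 173 and 152 CPM. Ifitm3, a membrane protein that restricts virus entry, was highest in Ndrg2-KO DC members at 757, 1732 and 1037 CPM. The list summed to 3148, 4607 and 3888 CPM in members and to 2163, 3431 and 2797 CPM in fibroblasts, in the same order of libraries. Arg1/Mmp12 macrophages (1713, 2602 and 1844 CPM) and Ly6c2/Ccr2 cells (3084, 4941 and 4622 CPM) had that order too. In Lyve1/Cd209 macrophages the sums were 4253, 5480 and 4117 CPM, with blank hydrogel below control DC.

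Inflammatory cytokines and mediators were higher in Ndrg2-KO DC members for 4 of 14 genes against control DC and 2 of 15 against blank hydrogel, and lower for none. Without neutrophil RNA members the counts were 2 and 1. Il1a, interleukin-1 alpha, stood at 37.7, 117 and 35.2 CPM. Its log2 ratio was 1.63 (1.38 to 1.88) to control DC and 1.73 (1.48 to 1.98) to blank hydrogel, and 1.22 and 1.42 without neutrophil RNA members. Il1b stood at 563, 1469 and 698 CPM, with log2 ratios of 1.38 (1.32 to 1.45) and 1.07 (1.02 to 1.13), of which the second was 0.63 without neutrophil RNA members. At 1000 UMIs Il1b was seen in 16.6%, 36.5% and 21.1% of members, against 0.273%, 2.33% and 1.88% of fibroblasts (37.2%, 64.1% and 49.4% of members unthinned). Acod1, which makes itaconate, stood at 50, 227 and 124 CPM. Its log2 ratio to control DC of 2.18 for Ndrg2-KO DC was 0.82 without neutrophil RNA members. For blank hydrogel its ratio was 1.32, and 1.28 without them. Il23a, a subunit of interleukin-23, had 3, 99 and 52 UMIs, and 1 Ndrg2-KO DC member held 25.3% of its UMIs there. Its call against control DC was lost without that cell, since under 100 UMIs remained. Inhba, a subunit of activin A, stood at 30.7, 87.3 and 31.7 CPM, with log2 ratios of 1.51 (1.23 to 1.79) and 1.46 (1.19 to 1.73). In Arg1/Mmp12 macrophages Il1a stood at 77.2, 744 and 107 CPM and Inhba at 383, 1298 and 107 CPM. The 8 neutrophil markers summed to 417, 6000 and 2330 CPM in that class. The repeat without cells that held neutrophil RNA was run on members only.

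Of 17 CC and CXC chemokines, Cxcl3 and Ccl24 were 2-fold or more higher in both Ndrg2-KO DC and blank hydrogel than in control DC members. Cxcl3, which draws neutrophils, stood at 72.3, 229 and 163 CPM, and Ccl24, which draws eosinophils, at 14.7, 54.1 and 43.1 CPM. Ccl5 was lower in blank hydrogel members (log2 ratio -1.27), and Ccl4 was higher in Ndrg2-KO DC than in blank hydrogel members (1.08, and 0.51 without neutrophil RNA members). Of the 15 genes tested in the growth factor list Spp1 was called against control DC in both comparisons, and no other was. That list does not hold Csf1, the growth factor on which macrophages depend, which was also called in both and stood at 5.58, 28.2 and 18.7 CPM, while its receptor Csf1r was at 661, 679 and 617 CPM. Without the cell with most Csf1 UMIs in each library, control DC and blank hydrogel members held under 100 Csf1 UMIs together and that call was lost. Nor does it hold Inhba (above) or Pgf, placental growth factor, which stood at 10.5, 29.3 and 20.6 CPM and was called in Ndrg2-KO DC members (log2 ratio 1.49, a gene chosen after its values were seen).

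Lipid-associated macrophage genes gave 2 of 14 calls against control DC wounds in each comparison, the same 2 genes, Spp1 and Cd9. Spp1 had 1935, 8398 and 6811 UMIs, or 450, 1345 and 1461 CPM, with log2 ratios of 1.58 (1.51 to 1.65) for Ndrg2-KO DC and 1.70 (1.63 to 1.77) for blank hydrogel. One blank hydrogel member held 20.2% of these UMIs there. Cd9, a tetraspanin, stood at 49.8, 150 and 158 CPM with log2 ratios of 1.59 (1.37 to 1.81) and 1.66 (1.44 to 1.89). The other 12 genes of the list, among them Trem2, Gpnmb and Lpl, were not 2-fold different from control DC. Both genes were far higher in Arg1/Mmp12 macrophages (Cd9 at 657, 903 and 620 CPM), a class from which the members are divided by a limit on Arg1 and Mmp12 UMIs. Arg1, arginase 1, was at 16.3, 32.7 and 54.1 CPM in members under that limit. How far members near the limit set the Spp1 and Cd9 levels was not tested.

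Matrix and protease genes also differed. Against control DC, 4 of 15 were higher and 1 lower in Ndrg2-KO DC members, and 5 of 14 higher in blank hydrogel members. Mmp12 was also called higher in Ndrg2-KO DC members, with a log2 ratio of 1.06. The rule limits the Arg1 plus Mmp12 UMIs of a member, so nothing is read from Mmp12 or its part in these counts. Its sign turned when the rule was applied to thinned cells. Timp1, an inhibitor of matrix metalloproteinases, stood at 16, 45.8 and 47.2 CPM, with log2 ratios of 1.51 (1.13 to 1.91) and 1.56 (1.16 to 1.97), and at 1565, 1742 and 1465 CPM in fibroblasts. Mmp9 and Mmp13, a gelatinase and a collagenase, were higher in both, with log2 ratios of 1.64 and 1.84 for Mmp9 and 1.40 and 2.38 for Mmp13. Without neutrophil RNA members the ratio of Mmp9 in Ndrg2-KO DC wounds was 0.90, and 1 blank hydrogel member held 43.1% of the Mmp13 UMIs there. Without the cell with most Mmp13 UMIs in each library, both Mmp13 calls were lost, since under 100 UMIs remained. Mmp19, a metalloproteinase of macrophages, went the other way and stood at 710, 328 and 498 CPM, with a log2 ratio of -1.12 (-1.20 to -1.03) for Ndrg2-KO DC. Fn1 and the collagen-degrading protease Ctsk were highest in blank hydrogel members, Fn1 at 190, 269 and 509 CPM and Ctsk at 18.4, 17.8 and 61.8 CPM. One member held 31.9% of the blank hydrogel Ctsk UMIs. Vcan, the proteoglycan versican, stood at 41.6, 27.1 and 96.9 CPM.

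Of 12 iron and haem genes 2 were 2-fold or more lower in Ndrg2-KO DC than in control DC members and none was higher, and the median log2 ratio of the list was -0.60. Of the 12 ratios 4 were above 0, and the summed level was 20771 CPM in control DC and 23652 CPM in Ndrg2-KO DC members. In blank hydrogel members 1 gene of the list was lower than in control DC members and the median was -0.04. Slc40a1, the iron exporter ferroportin, stood at 18.8, 7.53 and 16.5 CPM, a log2 ratio of -1.32 (-1.87 to -0.79). Spic, the transcription factor of iron-recycling macrophages, stood at 20.5, 8.97 and 14.6 CPM, a ratio of -1.19 (-1.70 to -0.69). Hmox1, haem oxygenase 1, was at 1444, 730 and 1254 CPM, and its log2 ratio of -0.98 (-1.04 to -0.93) stayed just under 2-fold. Cd163 stood at 334, 194 and 330 CPM and Mertk at 105, 63.1 and 96.7 CPM, both also under 2-fold. Clec10a stood at 438, 208 and 319 CPM, with a log2 ratio of -1.07 (-1.17 to -0.97), and was lower in the Lyve1/Cd209 class as well (1789, 869 and 1457 CPM). Of 13 resident or perivascular macrophage genes none was called.

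**Figure D5:**
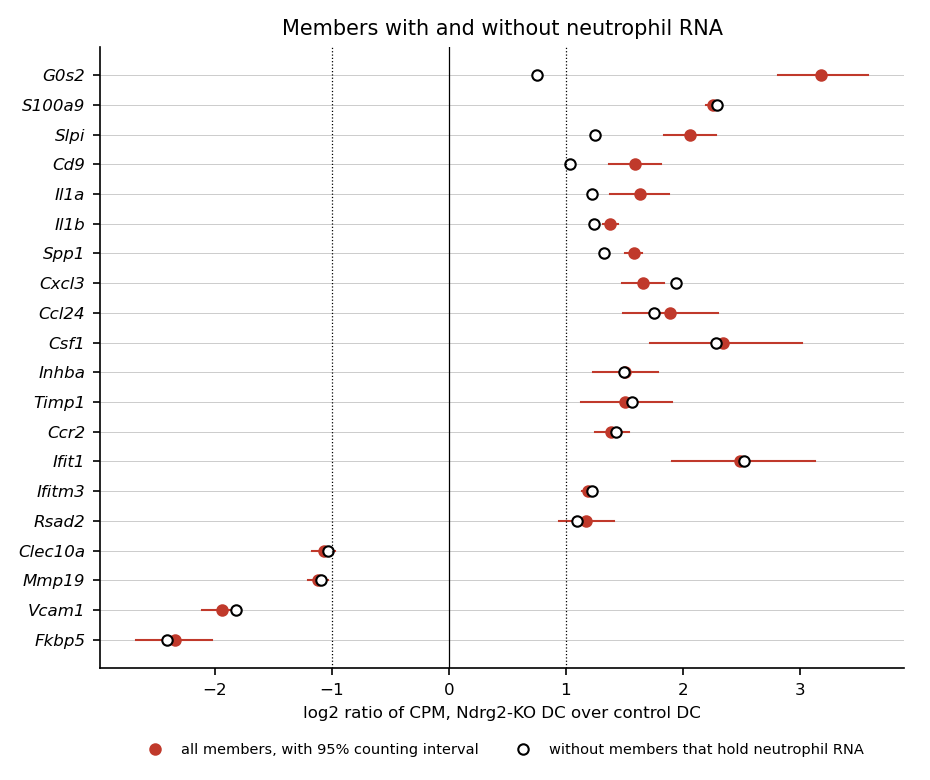
Log2 ratio of CPM, Ndrg2-KO DC over control DC, for 20 genes in all members (filled, with exact 95% counting interval) and without the members that held neutrophil RNA (open); dotted lines mark 2-fold. G0s2 moves from 3.18 to 0.75 and leaves the 2-fold range, while Ccr2, Ifit1, Inhba, Vcam1 and Fkbp5 stay on the same side of it.

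Neutrophil genes were higher in Ndrg2-KO DC members. Of 8 neutrophil markers 7 were called against control DC and 5 against blank hydrogel, and 2 and 0 without the members chosen by their S100a8 and S100a9 share, where 1 marker, Mmp9, was lower than in blank hydrogel members (-1.11). In blank hydrogel against control DC 1 marker was higher with these members and 3 without them. S100a9 stood at 502, 2407 and 637 CPM in members and at 8.29, 105 and 49.8 CPM in fibroblasts. The log2 ratios of S100a9 and S100a8 to control DC were 2.26 and 2.0, and 2.29 and 2.09 without these members. To blank hydrogel they were 1.92 and 1.91, and 0.15 and 0.52 without them. Since these members were chosen by S100a8 and S100a9, nothing is read from the ratios of these genes without them. G0s2, a lipolysis inhibitor abundant in neutrophils, stood at 14.7, 133 and 17.4 CPM, and its log2 ratio of 3.18 to control DC was 0.75 without these members. Slpi, a protease inhibitor outside the list, stood at 47.2, 197 and 119 CPM, with a log2 ratio of 2.06 that was 1.25 without them.

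Dissociation and stress genes, which respond to tissue digestion, separated the blank hydrogel members. All 20 genes of the list had a log2 ratio below 0 to control DC members, with a median of -0.56, and 3 were 2-fold or more lower. Hspa1a and Hspa1b, which encode heat shock proteins of the HSP70 family, stood at 852, 723 and 312 CPM and at 619, 388 and 199 CPM. Egr1, an immediate early transcription factor, stood at 1153, 862 and 483 CPM. Between Ndrg2-KO DC and control DC 0 of the 20 genes were called, with a median log2 ratio of -0.16. Over fibroblasts the list summed to 14369, 14313 and 13212 CPM, against 20353, 18803 and 15349 CPM in members. Other classes had other orders of libraries. The sums were 23236, 17679 and 20445 CPM in Lyve1/Cd209 macrophages and 11540, 13796 and 10111 CPM in Arg1/Mmp12 macrophages. In Ly6c2/Ccr2 cells they were 7829, 10747 and 10603 CPM.

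Between Ndrg2-KO DC and blank hydrogel members 1 of 14 lipid-associated, 1 of 19 clearance and 1 of 21 transcription factor genes were lower and none higher. Over all genes 0.596% were lower and 1.04% higher, and nothing is read about a list from a single call. Cd36, a fatty acid and lipoprotein scavenger receptor, stood at 102, 82.1 and 191 CPM, a Ndrg2-KO DC over blank hydrogel log2 ratio of -1.22 (-1.37 to -1.06). The transcription factor was Nr1h3, the oxysterol receptor LXR alpha, at 19.5, 16.3 and 39 CPM, a ratio of -1.26 (-1.62 to -0.90). Fabp4, a fatty acid binding protein of the lipid-associated list, had a ratio of -1.15, but 1 member held 54.5% of its blank hydrogel UMIs, and the call was lost without the cell with most of its UMIs in each library (-0.15).

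Some gene groups gave no call. Of 14 macrophage identity, 23 lysosome, 6 MHC class II, 12 Toll-like receptor and adaptor, 19 glycolysis and hypoxia and 13 resident or perivascular macrophage genes, 0 were called in any of the 3 comparisons. Counting intervals of smaller differences often excluded no change, as for Hmox1 above. C1qb had a log2 ratio of 0.49 (0.46 to 0.53) for Ndrg2-KO DC over control DC. Its UMIs helped to choose the cells, so nothing is read from it. All 6 MHC class II genes had a ratio above 0 in that comparison (median 0.17) and below 0 for blank hydrogel over control DC (median -0.28). Other lists gave few calls. Of 11 alternative activation genes Arg1 and Ccl24 were higher and Clec10a lower in Ndrg2-KO DC than in control DC members, and Arg1, Chil3 and Ccl24 were higher in blank hydrogel members. The rule caps Arg1 plus Mmp12 at under 5 UMIs per member, so nothing is read from Arg1 here, and the sign of Chil3 turned without the rule's limits (-0.16). Of 15 complement genes Cd55 was lower in Ndrg2-KO DC and Itgax higher in blank hydrogel members, with log2 ratios of -1.08 and 1.02, the second at the 2-fold limit. Of 18 Fc and C-type lectin receptor genes Clec4e was higher (1.12, and 0.86 without neutrophil RNA members) and Clec10a lower in Ndrg2-KO DC members, and of 19 chemokine and growth factor receptor genes Ccr2 was higher. Of 19 clearance genes Cd36 was called, between Ndrg2-KO DC and blank hydrogel. Of 21 transcription factor genes, Id3 was called against control DC in both comparisons, at 20.7, 47.1 and 44.8 CPM, and in Ndrg2-KO DC members no longer without neutrophil RNA members.

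Ndrg2, the gene edited in the Ndrg2-KO DCs, was at or near 0 in members, with 0, 2 and 0 UMIs. At this depth 3 UMIs correspond to 0.698, 0.48 and 0.643 CPM, a floor below which no level is read. In fibroblasts it stood at 9.78, 9.3 and 8.76 CPM. Its relative Ndrg1 was expressed by members at 157, 178 and 202 CPM and did not differ 2-fold. The applied DCs were not marked in these data, so members that descend from them and members of the host cannot be told apart.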

How the data were processed

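Single-cell suspensions of wounds were sequenced with a droplet 3′ kit (10x, v3). The authors deposited raw UMI counts per gene and barcode for each library. The methods name Cell Ranger and mm10, while the submitters' notes list mm9 and Seurat 3.1.1, so the build of the counts is not settled. Of 2711, 7538 and 4027 deposited barcodes (control DC, Ndrg2-KO DC, blank hydrogel), 1948, 5681 and 3403 passed limits of 300 detected genes or more, fewer than 100000 UMIs and a mitochondrial share below 10%. Members, classes and gene lists were chosen with earlier results of these data known.

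UMIs were summed per class and library and given as CPM. Log2 ratios carry conditional binomial, shares Clopper-Pearson 95% intervals, all for counting error only. With 1 library per condition, no test was run. Called genes had 100 or more UMIs in both sums together, a 2-fold difference and an interval that excludes no change. The script was tested on simulated data. Shares of cells with a UMI were taken at 1000 UMIs per cell, leaving out 4, 6 and 5 shallower members. Scrublet's threshold marked 17, 1 and 0 cells and was taken not to have worked, so no doublet was removed. Named genes were those of the rule and lists, the 10 most changed per direction, pair and class, 15 leading genes and the 15 highest Fano factors. The MHC class II split and the alternatives without neutrophil RNA, haemoglobin RNA or top cells were chosen after the data were seen. Python 3.11.15, numpy 2.4.6, scipy 1.17.1, pandas 2.3.3 and scanpy 1.11.5 were used.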

Additional observations from a re-analysis of the deposited data

Results flagged for a closer look

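Some genes called in C1q-expressing macrophages moved 2-fold or more the other way in another class of the same wounds. None of these differences between classes was tested, since each rests on 1 library per condition.

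For Ndrg2-KO DC over control DC, the log2 ratio of Slc40a1 was -1.32 in members and 1.35 in Arg1/Mmp12 macrophages, that of Lyz1 1.49 and -1.17, that of Mt2 -1.0 and 1.08, and that of Iigp1 -1.30 and 2.23. Without the members that held neutrophil RNA Mt2 had -0.94 in members, under 2-fold. Inhba stood at 1.51 in members and -1.39 in Ly6c2/Ccr2 cells, a class mixed with lymphocytes.

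For blank hydrogel over control DC, members and Arg1/Mmp12 macrophages had log2 ratios of 1.12 and -1.38 for Chil3, -1.68 and 1.10 for Vcam1, 1.56 and -1.76 for Ccl24, and 2.54 and -1.76 for Ccr7, whose blank hydrogel UMIs in members came to 73.3% from 1 cell, without which it was not called. The haemoglobin genes Hbb-bt (-1.49 and 3.94) and Hba-a1 (-1.11 and 1.08) did the same. In members, however, the signs of Hbb-bt and Hba-a1 turned when the rule was applied to thinned cells. Those of Hbb-bt and Chil3 turned without the rule's limits on Lyve1, Cd209, Arg1, Mmp12 and collagen genes. Slpi had 1.34 in members and -1.21 in Lyve1/Cd209 macrophages, but 0.77 in members without neutrophil RNA members, and Egr1 had -1.26 in members and 1.83 in Ly6c2/Ccr2 cells.

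For Ndrg2-KO DC over blank hydrogel, Fabp4 had -1.15 in members and 1.48 in Lyve1/Cd209 macrophages, but -0.15 in members without the cell with most of its UMIs in each library. Procr (-1.53 and 1.08) and Iigp1 (-1.46 and 1.68) differed in sign from Arg1/Mmp12 macrophages, and Il1f9 (1.13 and -1.34) and Asprv1 (1.45 and -1.02) from Ly6c2/Ccr2 cells. The sign of Procr in members turned without the rule's limits on Lyve1, Cd209, Arg1, Mmp12 and collagen genes. Without neutrophil RNA members Il1f9 had 0.33 and Asprv1 -0.58 in members, so both calls were lost.

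Outside the wounds, cells that met the same UMI rule were counted in the 3 dendritic cell cultures of the series, which entered no comparison. Cells with 5 or more C1q UMIs numbered 1524 of 7257 in the untreated, 1675 of 8825 in the vitamin D3 and 3320 of 7969 in the Ndrg2-KO culture, so they were most frequent in the last, and the differences that follow come with the other limits of the rule. Cells that met the whole rule were 16.4% of the vitamin D3 culture (95% interval 15.7 to 17.2, 1451 of 8825 cells), 0.841% of the untreated culture (0.644 to 1.08) and 1.87% of the Ndrg2-KO culture (1.58 to 2.19). Ms4a7 stood at 90.4, 9.6 and 30.2 CPM in them, below its level in wound members.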

How the results depend on the processing

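The control DC library had the highest and the Ndrg2-KO DC library the lowest share of members under every setting run. Shares were 13.4%, 7.65% and 10.8% (control DC, Ndrg2-KO DC, blank hydrogel) with 300 UMIs in place of 300 genes as the minimum, 25.5%, 17.1% and 22.5% with the rule applied at 1000 UMIs and 1 C1q UMI, and 31%, 18.9% and 24.3% without the limits on Lyve1, Cd209, Arg1, Mmp12 and collagen genes. With 10 C1q UMIs the blank hydrogel share was 10.9%, and without neutrophil RNA members the Ndrg2-KO DC share was 9.14%. Calls numbered 170, 98 and 115 (Ndrg2-KO DC over control DC, blank hydrogel over control DC, Ndrg2-KO DC over blank hydrogel). A minimum of 50 UMIs gave 274, 168 and 231, one of 300 UMIs 66, 35 and 45, and members drawn down to 1000 UMIs 54, 16 and 20 (7 higher and 9 lower for blank hydrogel over control DC, against 72 and 26), settings that change how many genes reach the minimum. The rule at 1000 UMIs gave 156 and 186 in the last 2 comparisons, and no limits 182 and 246. With the mean over cells of CPM per cell, the higher and lower genes numbered 149 and 60, 70 and 36, and 78 and 69 in the order above. Against all other cells 769 genes were lower with thinned members. Of the gene values, these changed sign: at the 1000-UMI rule Mmp12 (-1.05, Ndrg2-KO DC over control DC), Hbb-bt (1.68), Hba-a1 (0.85) and Hba-a2 (0.72) for blank hydrogel over control DC, and Slc40a1 (0.26), Hbb-bs (-0.01), Hba-a1 (-0.37) and Hba-a2 (-0.29) for Ndrg2-KO DC over blank hydrogel; without the limits Chil3 (-0.16) and Hbb-bt (0.53) for blank hydrogel over control DC and Slc40a1 (0.11), Procr (0.25) and Mmp3 (-0.23) for Ndrg2-KO DC over blank hydrogel; and as a mean over cells Lcn2 (-0.14, Ndrg2-KO DC over control DC). The cause was not tested. No paired analysis was possible because each condition is 1 library.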
